A study of Mus musculus with 6 samples.

Results

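A set of 10 transcription factors with known roles in mammary luminal cells were followed in HC11 cells, an established line of mouse mammary epithelium: *Gata3*, *Elf5*, *Foxa1*, *Esr1*, *Pgr*, *Sox9*, *Sox10*, *Ehf*, *Tfap2c* and *Cebpb*. They were chosen by name, and all 10 were found among the 55809 genes with a deposited count. The members and the related lists below were chosen with earlier results of these data known. Their called shares thus describe these genes only, and the share of all tested genes is given beside them as background. HC11 cells were cultured without (Ctrl) or with BMP7 protein, and poly(A) RNA of 3 libraries in each of the 2 groups was sequenced. Both groups were of the same line and carried no engineered allele by the labels, and the sources used here do not tie the libraries to a duration of BMP7 exposure. BMP7 libraries are named here by the numbers 1, 3 and 4 of their deposited columns.

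The mammary epithelium is made of an outer basal layer and an inner luminal layer, and luminal cells divide into hormone-sensing cells, which carry the estrogen and progesterone receptors, and alveolar cells, which make milk. GATA3 and FOXA1 act with the estrogen receptor in hormone-sensing cells, whereas ELF5, EHF and C/EBPβ are associated with luminal progenitors and the alveolar program, and SOX9 and SOX10 with progenitor states. BMP7 is a secreted ligand of the TGF-β superfamily that signals through receptor kinases and SMAD proteins, which bind short DNA motifs at their target genes.

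The libraries held 14607938 to 23748970 counted fragments, and 15733 genes had enough counts to be tested. Libraries of a group differed by more than sampling noise, so each was kept as a replicate. The labels do not say whether the libraries came from separate cultures, so p-values measure only the spread between these libraries. In bulk RNA, fewer cells of a type and less RNA per cell cannot be told apart. HC11 expressed epithelial genes of both layers. The luminal keratins *Krt8* and *Krt18* stood at 88.2 and 94.2 TPM (counts scaled for gene length and library total, so that levels of different genes can be compared) in Ctrl, below the basal keratins *Krt5* at 3287 and *Krt14* at 5427 TPM. The basal factor *Trp63* was at 77.4 TPM, while the contractile genes *Acta2*, *Myh11* and *Cnn1* were each below 1 TPM and the luminal keratin *Krt19* had at most 8 counts in any library. Of 12 alveolar and milk genes, 5 had no count in any library, among them the milk protein genes *Wap* and *Lalba*.

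The promoter letters are shown for 3 members that bear on the results: *Gata3*, which rose with BMP7, and *Esr1* and *Elf5*, whose calls depended on the scaling of the libraries. Promoter entries of RefSeq (assembly GRCm38.p6) were found for 6 of the 10 members, and no entry was found for *Sox9*, *Sox10*, *Ehf* and *Tfap2c*. *Esr1* and *Elf5* have 2 entries each, of which the one with more matches to the motifs below is printed. Each run covers the 250 bases before the annotated start, on the gene's own strand. Capitals mark GGCGCC, a GC-rich element bound by SMAD1 and SMAD5, and GTCT or its reverse complement AGAC, the short SMAD element. The *Gata3* run lies at chr2:9878601-9878850 on the minus strand, the *Esr1* run at chr10:4611739-4611988 on the plus strand and the *Elf5* run at chr2:103423818-103424067 on the plus strand.
Gata3: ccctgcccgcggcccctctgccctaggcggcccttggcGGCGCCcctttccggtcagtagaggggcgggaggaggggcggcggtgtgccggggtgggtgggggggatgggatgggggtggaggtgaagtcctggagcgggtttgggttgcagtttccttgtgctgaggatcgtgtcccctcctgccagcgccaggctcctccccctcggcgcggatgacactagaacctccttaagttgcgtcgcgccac
Esr1: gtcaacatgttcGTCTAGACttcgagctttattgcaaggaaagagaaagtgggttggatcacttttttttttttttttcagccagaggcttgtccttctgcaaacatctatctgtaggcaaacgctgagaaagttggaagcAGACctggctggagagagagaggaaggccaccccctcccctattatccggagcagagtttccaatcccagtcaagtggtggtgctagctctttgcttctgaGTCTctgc
Elf5: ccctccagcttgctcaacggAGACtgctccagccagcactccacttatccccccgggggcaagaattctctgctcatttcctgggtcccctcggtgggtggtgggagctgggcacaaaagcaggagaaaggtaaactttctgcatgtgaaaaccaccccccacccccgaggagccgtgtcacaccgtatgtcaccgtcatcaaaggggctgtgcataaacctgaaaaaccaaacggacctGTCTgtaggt

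The *Gata3* run held the GC-rich element once, 212 bases before the start, and no match to the short element. On either strand, the GC-rich element was in 9.59% of the 32851 RefSeq promoter entries and the short element in 82.9% of them. The GC content of the *Gata3* run was 70.0%, against a median of 52.4% over all entries. The *Esr1* run held 4 matches to the short element, of which 2 abut as the palindrome GTCTAGAC, 238 bases before the start. That palindrome was in 55 entries, or 0.167%, and was searched for after the sequence had been read. The *Elf5* run held one match at 230 and another at 10 bases before the start. The other *Esr1* entry held 2 matches to the short element and no palindrome, and the other *Elf5* entry held 1 match, at 238 bases before its start. These matches describe the letters only, and binding at them was not measured in these libraries.

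Without BMP7, HC11 expressed 6 of the 10 factors at 5 TPM or more, while *Esr1*, *Foxa1*, *Sox10* and *Pgr* were each below 1 TPM. *Sox9* was the most abundant in Ctrl, at 459 ± 9.08 TPM (SD, n = 3), and made up 60.1% of the summed TPM of the 10 members. SOX9 is a factor of progenitor and stem-like epithelial cells, and its level was higher than that of 98.4% of the tested genes. *Cebpb*, which encodes C/EBPβ, a factor needed for ductal and alveolar development, followed at 185 ± 13.1 TPM. *Tfap2c*, which encodes the luminal factor AP-2γ, was at 57.3 ± 4.52 TPM, and *Gata3*, the zinc-finger factor that maintains luminal identity, was at 43.4 ± 2.42 TPM. *Elf5*, the ETS factor that directs alveolar differentiation, was at 11.5 ± 1.99 TPM, and *Ehf*, an epithelial ETS factor, was at 5.60 ± 1.69 TPM. Those 6 factors thus spread from the 29.0th to the 98.4th percentile of tested genes.

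*Esr1*, the estrogen receptor gene, was at 0.793 ± 0.0971 TPM, above 5.98% of the tested genes. *Foxa1*, a pioneer factor of hormone-sensing cells, was at 0.121 to 0.287 TPM in the Ctrl libraries, with 7, 3 and 6 counts. *Sox10*, a factor of mammary progenitors and neural crest, had 0, 0 and 3 counts. *Pgr*, the progesterone receptor gene, had no count in any of the 6 libraries, which by the limit of 3 counts that a count of 0 allows leaves levels up to 0.0375 to 0.0614 TPM, depending on the library. The intervals and limits here cover counting error only. In the order of Ctrl levels, the ranges of neighbours over the 3 libraries did not overlap from *Sox9* down to *Foxa1*. The closest of these pairs was *Tfap2c* and *Gata3*, whose means differed 1.32-fold and whose ranges were 52.2 to 60.6 and 42.0 to 46.2 TPM. Only *Foxa1* and *Sox10*, and *Sox10* and *Pgr*, overlapped.

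**Figure D1:**
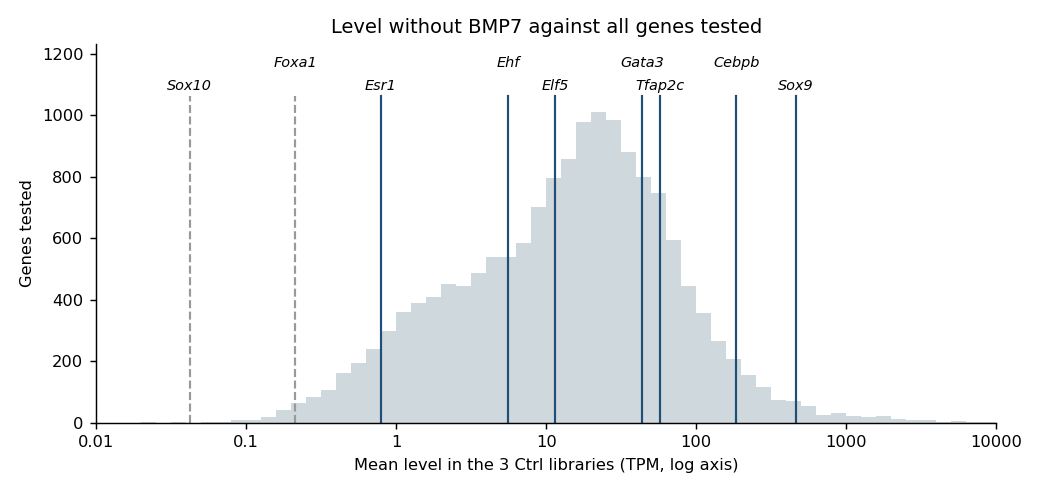
Mean Ctrl level of each factor (vertical lines, dashed where the factor was not tested) on a histogram of all tested genes by mean Ctrl level (TPM, log axis). *Sox9* at 459 TPM lies near the top of the distribution, and *Esr1* at 0.793 and *Foxa1* at 0.213 TPM lie near its bottom.

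With BMP7, *Gata3* and *Sox9* rose and *Tfap2c* fell, while the other 4 testable members did not pass the test. A gene was called when its adjusted p was below 0.05 in the quasi-likelihood test of edgeR (Benjamini-Hochberg method) and its fold change exceeded 1.2. By this rule 2 of 7 tested members were higher and 1 was lower, beside 5.99% of all tested genes higher, 5.38% lower and 11.4% called in either direction. By adjusted p alone 3 of the 7 members passed, beside 13.7% of all tested genes. The median log2 fold change was -0.26 over the 7 members and -0.01 over all tested genes. *Foxa1*, *Sox10* and *Pgr* had too few counts for the test. Library values are given below as CPM (counts scaled to the library total, adjusted by the trimmed mean of M values), which serve to compare libraries and not genes.

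*Gata3* was at 58.8, 61.1 and 69.9 CPM in Ctrl replicates 1, 2 and 3 and at 135, 148 and 112 CPM in BMP7 replicates 1, 3 and 4. The lowest BMP7 library was well above the highest Ctrl library. The mean went from 63.3 ± 5.86 to 132 ± 18.1 CPM (SD, n = 3 each), a 2.08-fold rise with a log2 fold change of 1.06 (SE 0.09, adjusted p = 4.88e-07 by edgeR). Of the 15733 tested genes, *Gata3* had the 275th largest log2 fold change. By the annotation behind the counts, *Gata3* spans chromosome 2, 9861889 to 9894845 on the minus strand, and 5.83% of its exon bases lie in exons of 9230102O04Rik and Gm13256, where fragments were not assigned.

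*Sox9* was at 675, 678 and 731 CPM in the Ctrl libraries and at 854, 940.2 and 853 CPM in the BMP7 libraries. The groups did not overlap, but the change was small beside that of *Gata3*. The mean went from 695 ± 31.7 to 882 ± 50.2 CPM, a 1.27-fold rise with a log2 fold change of 0.34 (SE 0.06, adjusted p = 0.00159 by edgeR). This call was lost when the change was tested against a fold change of 1.2 rather than against no change. The size of the rise also depended on the scaling. In TPM, which use no scaling factors, the *Sox9* means were 459 and 538, a ratio of 1.17. With library totals and no scaling factors its log2 fold change was 0.27.

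*Tfap2c* was at 67.7, 79.6 and 84.9 CPM in Ctrl and at 40.5, 45 and 39.7 CPM with BMP7. All BMP7 libraries lay below all Ctrl libraries, and they were closer together than the Ctrl libraries. The mean went from 77.4 ± 8.85 to 41.7 ± 2.87 CPM, so that the Ctrl level was 1.85-fold the BMP7 level (log2 fold change -0.89, SE 0.08, adjusted p = 1.53e-06 by edgeR). *Tfap2c* lies on chromosome 2 at 172391513 to 172400542 on the plus strand, and the next tested gene to its right is *Bmp7* itself, 309263 bases away.

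**Figure D2:**
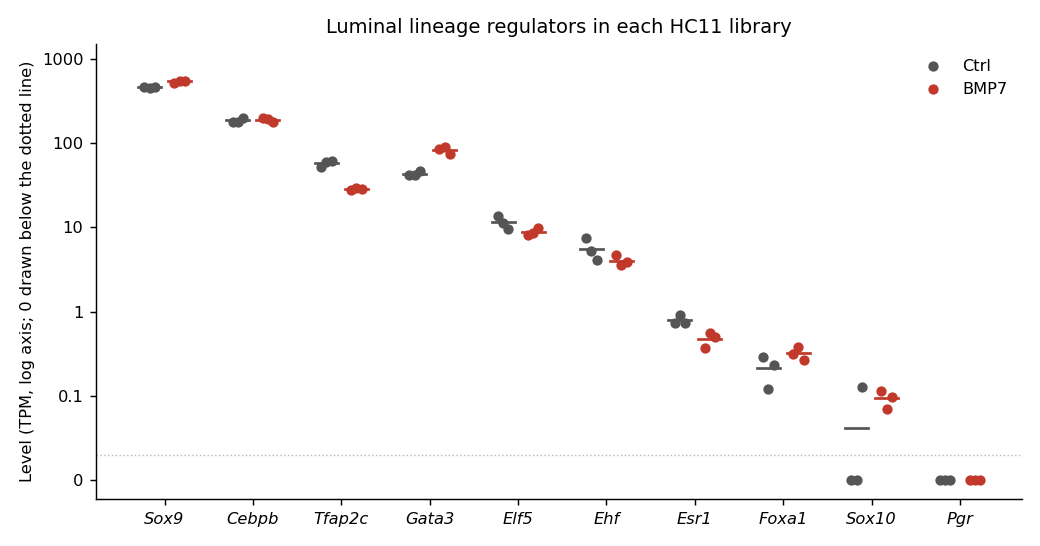
Level of each factor in each library (TPM, log axis with 0 drawn at the bottom), with points for the 3 Ctrl (grey) and 3 BMP7 (red) libraries and bars for the group means. *Gata3* and *Sox9* sit higher in all 3 BMP7 libraries and *Tfap2c* lower, and *Pgr* is at 0 throughout.

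*Esr1* had 74, 92 and 78 counts in Ctrl and 29, 72 and 46 with BMP7, or 3.56, 4.52 and 3.81 against 2.02, 3.20 and 2.53 CPM. The groups did not overlap, yet the call rule was not met, with a log2 fold change of -0.59 (SE 0.22, 95% interval -1.05 to -0.13, adjusted p = 0.0861 by edgeR). In all, 4 of the 7 tested members (*Gata3*, *Sox9*, *Tfap2c* and *Esr1*) had groups that did not overlap, beside 29.8% of all tested genes. For each of these 4 the exact two-sided permutation test gave p = 0.1, the smallest that 3 against 3 libraries allow.

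*Elf5* was at 28.1, 24.0 and 21.6 CPM in Ctrl and at 18.9, 20.9 and 21.7 CPM with BMP7, and the groups overlapped. Its log2 fold change was -0.26 (95% interval -0.48 to -0.04, adjusted p = 0.12 by edgeR). *Ehf*, which lies 108410 bases from *Elf5* on chromosome 2 with 3 annotated genes between them, was at 14.6, 10.6 and 8.80 CPM against 10.3, 8.27 and 8.04 CPM. The groups overlapped again, with a log2 fold change of -0.37 (95% interval -0.72 to -0.01, adjusted p = 0.178 by edgeR). Both estimates were below 0, and neither passed the adjustment over all genes. Without Ctrl replicate 1, which had the highest level of both genes, the log2 fold changes were -0.15 for *Elf5* and -0.14 for *Ehf*. With library totals and no scaling factors, tried after the data were seen, *Elf5* (adjusted p = 0.0442) and *Esr1* (adjusted p = 0.0414) were called lower by edgeR, with log2 fold changes of -0.33 and -0.67 against a median of -0.08 over all genes.

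*Cebpb* was at 93.8, 98.3 and 115 CPM in Ctrl and at 118, 122 and 101 CPM with BMP7. Its groups overlapped, with a log2 fold change of 0.15 (95% interval -0.02 to 0.33, adjusted p = 0.259 by edgeR). In *Cebpb*, 20.7% of the exon bases also lie in exons of *Peds1* on the opposite strand, and fragments there were counted for neither gene.

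*Foxa1* had 16 counts summed over Ctrl and 24 over BMP7, a depth-adjusted ratio of 1.68 with a counting interval of 0.856 to 3.38. *Sox10* had 3 and 6 summed counts, at most 3 in any library, so no fold is given. Neither gene was tested, and a moderate difference in either could not be told from none at this depth. *Pgr* stayed at 0 counts with BMP7.

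**Figure D3:**
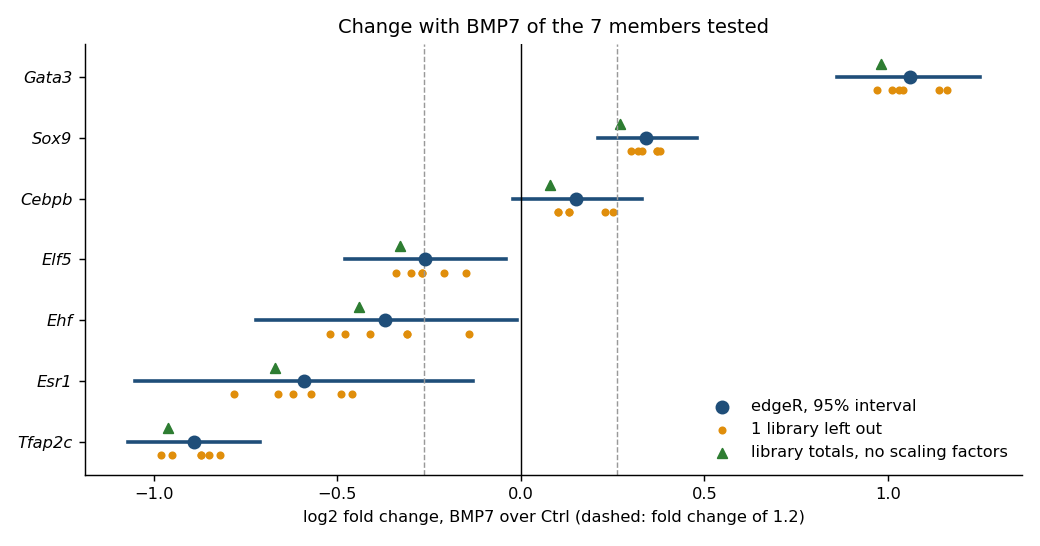
Log2 fold change (BMP7 over Ctrl) of the 7 tested factors with 95% intervals from edgeR (blue), with each library left out in turn (orange) and with library totals without scaling factors (green), and dashed lines at a fold change of 1.2. *Gata3* at 1.06 and *Tfap2c* at -0.89 lie far from 0 on either side, *Sox9* lies at 0.34, and *Cebpb* is the one factor whose interval spans 0.

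The changes altered the balance between members. The TPM ratio of *Gata3* to *Tfap2c* within a library was 0.804, 0.710 and 0.761 in Ctrl and 3.08, 3.04 and 2.61 with BMP7. *Tfap2c* was thus the more abundant of the pair in each Ctrl library and *Gata3* in each BMP7 library, and these were the only members to change places in the order of mean levels. The mean ratio was 0.758 ± 0.0475 in Ctrl and 2.91 ± 0.259 with BMP7, a log2 difference of 1.94 (exact two-sided permutation p = 0.1). The ratio of *Gata3* to *Elf5* went from 3.88 ± 0.856 to 9.55 ± 1.65, also without overlap. By contrast, the ratio of *Elf5* to *Ehf* was 2.10 ± 0.255 and 2.23 ± 0.437, with overlapping groups (exact two-sided permutation p = 0.7). Since *Gata3*, *Sox9* and *Tfap2c* were already known to change, their ratios describe the balance and are no further test.

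**Figure D4:**
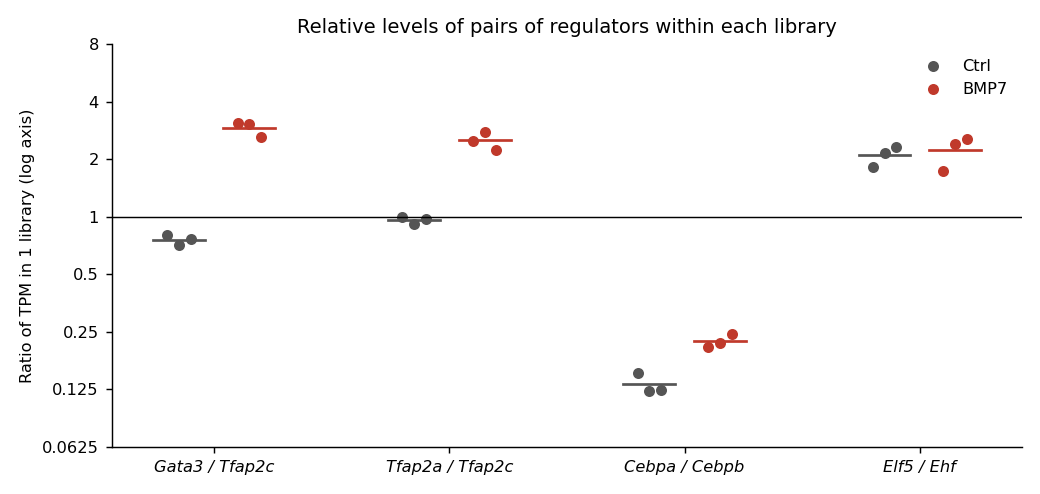
Ratio of TPM between pairs of factors within each library (log axis), with points for Ctrl (grey) and BMP7 (red) libraries and bars for group means. The ratio of *Gata3* to *Tfap2c* is below 1 in all Ctrl libraries and above 1 in all BMP7 libraries, while *Elf5* to *Ehf* overlaps.

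Among 25 paralogs of the members, 15 were tested, of which 3 were higher with BMP7 and 0 were lower, and the median log2 fold change was 0.05. The called share was 20%, beside 11.4% of all tested genes. *Gata2*, a relative of *Gata3* with roles in blood and vessel cells, was at 0.626, 0.295 and 0.391 CPM in Ctrl and at 3.35, 3.60 and 2.64 CPM with BMP7. It rose by a log2 fold change of 2.85 (SE 0.33, adjusted p = 1.38e-05 by edgeR) and remained far scarcer than *Gata3*, at a TPM ratio of 0.0179 with BMP7. The Ctrl libraries held only 6 to 13 counts of *Gata2*. A stricter filter, which drops any gene that falls below 10 counts in a library, left *Gata2* untested. Under that filter 2 paralogs were called. *Tfap2a*, which encodes the AP-2α paralog of AP-2γ, was at 90.2, 97.1 and 110.4 CPM in Ctrl and at 135, 167 and 119 CPM with BMP7. Its log2 fold change was 0.50 (SE 0.10, adjusted p = 0.00309 by edgeR), opposite in sign to that of *Tfap2c*. The ratio of *Tfap2a* to *Tfap2c* went from 0.964 ± 0.0439 to 2.51 ± 0.271, while *Tfap2b*, with a log2 fold change of 0.05, was not called. Of the *Tfap2a* exon bases, 14.6% are shared with antisense genes.

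*Cebpa*, the paralog of *Cebpb* that promotes terminal differentiation in several tissues, was at 25, 21.2 and 25 CPM in Ctrl and at 43.1, 46.9 and 43.0 CPM with BMP7. It rose by a log2 fold change of 0.90 (SE 0.08, adjusted p = 1.05e-06 by edgeR), and the ratio of *Cebpa* to *Cebpb* went from 0.133 ± 0.0164 to 0.223 ± 0.0178. *Cebpg* had an adjusted p of 0.0071 by edgeR, with a log2 fold change of 0.25 that was under the size needed for a call. The ETS relatives *Elf1* and *Elf3*, at 55.0 and 13.1 TPM in Ctrl, were not called. Of the steroid receptors related to *Esr1* and *Pgr*, the glucocorticoid receptor gene *Nr3c1* was at 29.9 TPM in Ctrl, with a log2 fold change of 0.03. *Nr3c2*, the mineralocorticoid receptor gene, at 1.15 TPM and *Esr2*, the other estrogen receptor gene, at 0.946 TPM were low, and neither was called.

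**Figure D5:**
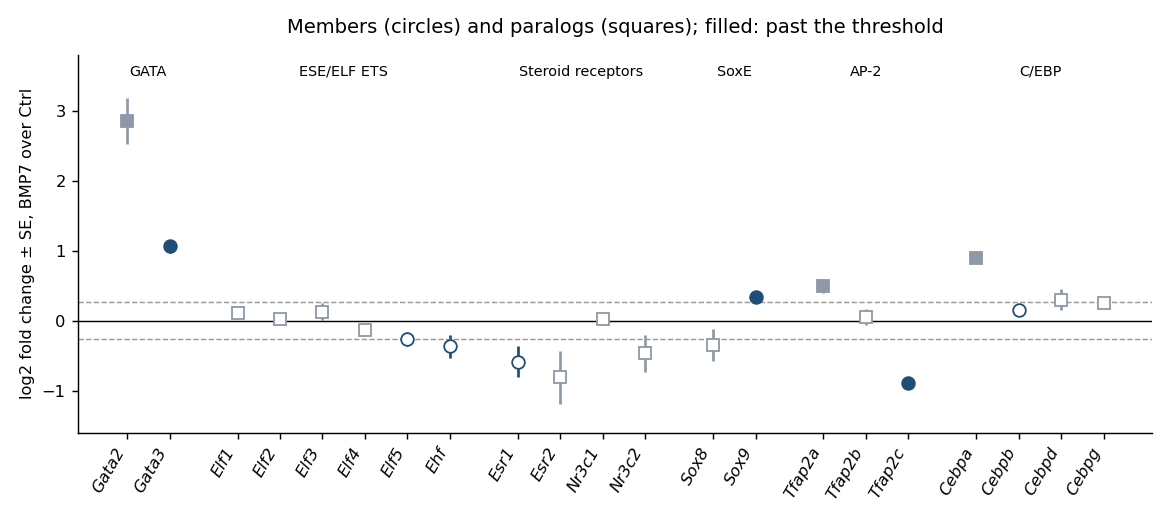
Log2 fold change with its SE (BMP7 over Ctrl) of tested members (circles) and a selection of tested paralogs (squares) by family, filled where called, with dashed lines at a fold change of 1.2. *Tfap2a* at 0.50 lies on the other side of 0 from *Tfap2c* at -0.89, and *Cebpa* at 0.90 is called where *Cebpb* at 0.15 is not.

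Of 20 coregulators that bind or modify the members, 19 were tested, 2 were higher, 1 was lower and the median log2 fold change was 0.06. The called share was 15.8%, beside 11.4% of all tested genes. *Cited4*, which encodes a p300-binding coactivator of AP-2, was at 216, 203 and 228 CPM in Ctrl and at 70.8, 68.4 and 73.9 CPM with BMP7. It fell by 1.60 on the log2 scale (SE 0.06, adjusted p = 3.57e-11 by edgeR), with narrow spread in both groups. Its relative *Cited2* went from 112, 109.9 and 139 to 185, 213 and 162 CPM (log2 fold change 0.63, SE 0.10, adjusted p = 0.000241 by edgeR). *Kctd15*, an inhibitor of AP-2 activity, went from 49.4, 47.5 and 50.3 to 83.1, 70.5 and 67.4 CPM (log2 fold change 0.58, SE 0.08, adjusted p = 6.07e-05 by edgeR). Its relative *Kctd1*, with a log2 fold change of 0.05, was not called, and *Cited1* had too few counts for the test. The GATA cofactors *Zfpm1* and *Zfpm2*, the receptor coactivators *Ncoa1*, *Ncoa2* and *Ncoa3* and the GATA-family repressor *Trps1*, at 945 ± 11 CPM in Ctrl and 918 ± 78.6 with BMP7, were not called.

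All of the 22 other mammary epithelial transcription factors were tested, with 8 higher, 3 lower and a median log2 fold change of 0.06. The called share was 50%, beside 11.4% of all tested genes. Because the list was chosen with earlier results of these data known, the difference between these shares is not a test. *Hey1*, a Notch and BMP target, went from a mean of 18.4 to 58.8 CPM (log2 fold change 1.68). *Ovol1*, a repressor that maintains epithelial identity, was at 2.36, 3.98 and 1.61 CPM against 6.97, 8.80 and 6.33 CPM (log2 fold change 1.48). The grainyhead factors *Grhl1*, from 32.9 to 72.1 CPM, and *Grhl3*, from 3.09 to 5.46 CPM, rose as well, by log2 fold changes of 1.13 and 0.84. For *Grhl3* the rise was smallest in BMP7 replicate 1, at 3.97 CPM against 2.99, 3.24 and 3.03 CPM in Ctrl. That library alone gave a log2 fold change of 0.36. The third grainyhead factor in the list, *Grhl2*, was lower with BMP7, from 109 to 89.6 CPM (log2 fold change -0.29, adjusted p = 0.0148 by edgeR). *Myb*, associated with luminal progenitors, went from 11.8 to 6.88 CPM (log2 fold change -0.78, adjusted p = 0.00122 by edgeR). For *Ovol1*, 22.1% of its exon bases are shared with other genes.

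Of 13 genes of hormone-sensing cells, 6 were tested, 1 was higher and the median log2 fold change was -0.08. The called share was 16.7%, beside 11.4% of all tested genes. Of the 13 genes, 5 had no count in any library: *Tnfsf11*, *Tff1*, *Tff3*, *Agr2* and *Cxcl15*. *Greb1*, a cofactor gene induced by the estrogen receptor in hormone-responsive cells, was at 17.8, 20.8 and 18.6 CPM in Ctrl and at 36.9, 44.7 and 40.2 CPM with BMP7. It rose by a log2 fold change of 1.10 (SE 0.09, adjusted p = 3.37e-07 by edgeR), while *Esr1* was low and *Pgr* was at 0 counts in the same libraries. The prolactin receptor gene *Prlr*, at 14.0 and 11.2 CPM, and the growth factor gene *Areg*, at 8.39 and 7.34 CPM, were not called.

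Markers of the epithelial layers and of other cell types moved in the same libraries, where 11.4% of all tested genes were called. Of 13 luminal epithelial markers, 11 were tested, 2 were higher and 4 were lower, with a median log2 fold change of -0.27. The surface antigen gene *Cd24a* rose by a log2 fold change of 1.32 and the scarce *Aldh1a3*, at 0.405 CPM in Ctrl, by 1.56. *Aldh1a3* had as few as 6 counts in a library and entered the test only through its BMP7 libraries. A higher call was thus its likely outcome, and a filter of 10 counts in every library leaves it untested. *Krt18* at -0.67, *Epcam* at -0.42, *Cldn3* at -0.31 and *Cdh1* at -0.27 were lower, and *Krt8* at 0.09 was not called. Of 11 basal and myoepithelial markers, 10 were tested and 5 were higher, among them *Krt14* at 0.43 and *Trp63* at 0.64, and 0 were lower. *Trp63* and *Snai2* were also counted as higher among the other mammary epithelial transcription factors above. *Krt5* at -0.03 and the scarce *Acta2* at -1.23, from 0.602 CPM in Ctrl, were not called. The fibroblast list had 6 of 8 genes tested, 3 higher and 1 lower, with a median log2 fold change of 0.64. The whole list summed to 115 to 126 CPM in Ctrl against 102 to 119.6 CPM in the BMP7 libraries. The largest part of that sum was the lower gene, *Col1a1*, from a mean of 71.1 to 53.2 CPM. All 7 tested genes of 10 adipocyte markers were higher, 4 of them with groups that did not overlap, beside 29.8% of all tested genes in either direction. Among them *Plin1*, at 0.438 CPM in Ctrl and 1.51 CPM with BMP7, entered the test only through its BMP7 libraries. *Retn*, *Pparg* and *Lep* were too scarce to be tested. The whole list summed to 14.4 to 23.4 CPM without and 26.3 to 88.3 CPM with BMP7, while *Pparg* had at most 3 counts in any library. Of 10 macrophage markers 7 were tested and 3 were lower, with sums of 46.4 to 50.1 and 23.2 to 47.3 CPM. The part of these markers in the changes of the 10 factors was not tested.

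BMP7 replicate 1 had the adipocyte sum of 26.3 CPM and the macrophage sum of 47.3 CPM, both nearer to the Ctrl libraries than in the other BMP7 libraries. For *Gata3*, *Sox9*, *Tfap2c* and *Cebpb*, BMP7 replicate 1 lay within the range of the other BMP7 libraries, whereas *Elf5* and *Esr1* lay below that range and *Ehf* above it. Against Ctrl, this library alone, whose spread is then taken to be that of the Ctrl libraries, gave log2 fold changes of 1.09 for *Gata3*, 0.30 for *Sox9* and -0.93 for *Tfap2c*, and without it they were 1.04, 0.37 and -0.87. For *Esr1* the values were -0.97 and -0.46.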

How the data were processed

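Poly(A) RNA of 6 HC11 libraries was sequenced by the authors, who aligned read pairs with subjunc (Subread 2.0.3 by the submitters' notes) and assigned fragments to gene names by featureCounts (2.0.1 by the file header). The methods name mm10 for alignment, the header an mm39 annotation. The deposited values are raw counts on exons, unstranded, without fragments that mapped to several places or genes. Each gene's exon length was deposited beside them. Groups follow the labelled condition. Here edgeR 4.0.16 in R 4.3.3 was used with filterByExpr, TMM scaling and its quasi-likelihood test on 2 groups of 3 libraries, with 4 residual degrees of freedom and a biological coefficient of variation of 0.0696, and p-values were adjusted over all 15733 tested genes. CPM and TPM were computed from the counts. Totals were 19908386, 19858701 and 20327200 (Ctrl 1 to 3) and 14607938, 23748970 and 18300052 (BMP7 1, 3 and 4), and a level of 3 counts was read as the limit of detection. All members are named. From the paralog, coregulator, factor and hormone-sensing lists at most 5 called genes whose mean reached 1 CPM are named by the size of their change, and other genes named were chosen after their values were seen. For the 2 called members that changed most, the 3 genes with the highest Pearson r are given. The members and lists were chosen with earlier results of these data known. A gene of the paralog list is not reported here by name. Scripts were tested on simulated data. Exon overlaps were read from the coordinates deposited with the counts, and promoter letters come from RefSeq on GRCm38.p6, which was not mixed with those coordinates. Alternatives were other scalings and filters, DESeq2 1.42.0, other fold thresholds and each library left out.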

Additional observations from a re-analysis of the deposited data

How the results depend on the processing

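The calls of *Gata3*, *Sox9* and *Tfap2c* were made under RLE and upper-quartile scaling, DESeq2, both filters and every left-out library. Leaving out each library in turn gave 2 members higher and 1 lower each time, 723 to 1081 genes higher and 563 to 902 lower (563 without Ctrl replicate 2, against 846 with all libraries), and 1 to 2 called genes of hormone-sensing cells (2 without BMP7 replicate 4, where *Wnt4* was added). Without a filter on low counts that list also had 2. With a fold change above 2, 252 genes were higher and 112 lower, 1 member (*Gata3*) was higher and 0 lower by the same edgeR test, and 1 paralog, 1 coregulator and 3 other factors were called. Tested against a fold change of 1.2 with glmTreat, 494 genes were higher and 254 lower, and 1 member was higher, since *Sox9* was lost. Library totals without scaling factors, tried after seeing the data, shifted the median log2 fold change of all genes to -0.08 and gave 718 genes higher and 1474 lower, so that 32.8% of calls were higher, against 52.7%. Then 3 members were lower, with *Elf5* at -0.33 (adjusted p = 0.0442 by edgeR) and *Esr1* at -0.67 (adjusted p = 0.0414 by edgeR) beside *Tfap2c*, and *Prlr* made 2 hormone-sensing calls. No direction of a called member was reversed under these settings. No paired analysis was possible because the numbers of the BMP7 columns differ from those of the labels, so no BMP7 column could be tied to a numbered sample. Depth limits *Foxa1*, *Sox10* and *Pgr*, which had at most 12 counts in any library.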

Other observations

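Some genes followed the members closely across libraries. Over the 6 libraries, which share the split into Ctrl and BMP7, the tested genes with the highest Pearson r to *Gata3* on the log scale were *Gabpb1*, *Dlx5* and *Foxc1*, with r of 0.999, 0.9987 and 0.9985. *Dlx5*, a homeobox factor, went from 26.7 to 96.5 CPM (log2 fold change 1.85), *Foxc1*, a forkhead factor, from 181 to 241 CPM (log2 fold change 0.42) and *Gabpb1*, a subunit of the GA-binding protein, from 33.9 to 42.1 CPM (log2 fold change 0.31). For *Tfap2c* the genes were *Spns2*, a sphingosine-1-phosphate transporter gene, *Sipa1l3* and *Clec2e*, with r of 0.9971, 0.9967 and 0.9956. *Spns2* went from 53.7 to 24.6 CPM and *Sipa1l3* from 108 to 69.1 CPM, and both were called lower, while *Clec2e*, from 3.93 to 3.04 CPM, was not called.

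Some further called genes of the lists were chosen after their values were seen. The basal factor gene *Snai2* rose by a log2 fold change of 0.70, and *Btn1a1*, which encodes a protein of the milk fat globule membrane, rose by 0.47. The iron-binding secreted protein gene *Lcn2* fell by 0.40 on the log2 scale. The receptor tyrosine kinase gene *Kit*, a luminal progenitor marker, had 1 to 12 counts per library and was not tested. The mean of *Kit* was 0.179 CPM in Ctrl and 0.562 CPM with BMP7. Its groups did not overlap, as was the case for 29.8% of all tested genes in either direction.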
